A study of Rattus norvegicus with 18 samples.

Results

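Toll-like receptors and the proteins that work directly with them were followed through 2 years of repeated exposure of the rat lung to multiwalled carbon nanotubes (MWCNTs). The list was set by name and holds 10 genes, the receptors *Tlr1*, *Tlr2*, *Tlr3*, *Tlr4*, *Tlr7*, and *Tlr8*, the co-receptors *Cd14* and *Ly96*, and the adaptors *Myd88* and *Ticam1*. Of these 10 genes, 8 were matched by name to 1 of the 22081 gene entries, and *Ly96* and *Ticam1* are not analysed here. All 8 had enough counts to be tested in each comparison.

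RNA was taken from the lungs of 18 male F344 rats in 6 groups of 3. MWCNT-treated rats received MWNT-7, a long and rigid type of MWCNT, by intratracheal instillation at 0.5 mg/kg body weight every 4 weeks from 9 weeks of age. Control rats received only the vehicle, 0.9% saline with 0.1% Tween 80. Lungs were sampled after 0.5, 1, and 2 years (named Years 0.5, 1, and 2 here), from pieces of the accessory lobe without tumors. The 3 time points are different animals, and each rat was sequenced once, to 13297643 to 17868851 counts in control rats and 14661589 to 21130757 counts in MWCNT-treated rats. Markers of alveolar epithelium (*Sftpc*, *Sftpb*, *Sftpa1*, *Ager*, *Aqp5*, and *Hopx*) were all present, at a summed level of 30663 to 60759 TPM (transcripts scaled by their length and by the total of the library) over all rats.

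Toll-like receptors are sensors of the innate immune system, which recognise molecular patterns of microbes and of damaged cells. TLR1, TLR2, and TLR4 sit at the cell surface, where they bind lipoproteins (TLR2 paired with TLR1 or TLR6) and lipopolysaccharide (TLR4), whereas TLR3, TLR7, and TLR8 sit in endosomes and bind RNA. CD14 hands lipopolysaccharide to TLR4 and its partner MD-2 (the product of *Ly96*). MyD88 carries the signal of all of these receptors except TLR3 to the IRAK kinases and on to NF-κB, and TRIF (the product of *Ticam1*) serves TLR3 and, from the endosome, TLR4. In the lung, alveolar macrophages carry many of these receptors and also take up inhaled fibers.

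The sequences of RefSeq that lie just before the start of transcription were matched for all 8 genes and are given for 5 of them, *Cd14*, which responded most to MWCNT in each year, *Tlr8*, which came next at Years 0.5 and 2, *Tlr7*, the neighbour of *Tlr8*, *Tlr2*, and *Tlr4*, which responded little. Each run holds the 250 bases before the start in the direction of transcription, in the build GRCr8. *Cd14* is at chr18:28611159-28611408 (minus strand), *Tlr8* at chrX:30708476-30708725 (plus), *Tlr7* at chrX:30644176-30644425 (plus), *Tlr2* at chr2:171504558-171504807 (minus), and *Tlr4* at chr5:85160997-85161246 (plus). Capitals mark matches, on either strand, to the PU.1 core (GAGGAA, or TTCCTC when read on the other strand), to the C/EBP motif TTGCNNAA, or, in *Tlr2*, to the NF-κB consensus. The form of the NF-κB consensus searched was GGGRNYYYCC, where R is A or G, Y is C or T, and N is any base.
Cd14: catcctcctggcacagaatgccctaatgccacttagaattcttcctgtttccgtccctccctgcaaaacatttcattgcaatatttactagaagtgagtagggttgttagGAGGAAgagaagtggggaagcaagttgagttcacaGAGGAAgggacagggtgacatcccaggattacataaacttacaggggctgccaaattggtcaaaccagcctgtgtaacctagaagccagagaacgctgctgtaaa
Tlr8: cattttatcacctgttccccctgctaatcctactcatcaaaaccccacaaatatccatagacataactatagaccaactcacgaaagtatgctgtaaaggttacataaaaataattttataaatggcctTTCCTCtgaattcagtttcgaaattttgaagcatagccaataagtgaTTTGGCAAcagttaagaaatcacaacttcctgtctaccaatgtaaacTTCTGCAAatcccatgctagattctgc
Tlr7: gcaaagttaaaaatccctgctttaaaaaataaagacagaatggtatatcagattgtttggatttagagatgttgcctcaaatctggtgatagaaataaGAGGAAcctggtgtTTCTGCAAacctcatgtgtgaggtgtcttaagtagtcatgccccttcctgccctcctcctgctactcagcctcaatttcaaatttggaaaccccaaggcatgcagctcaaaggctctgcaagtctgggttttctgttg
Tlr2: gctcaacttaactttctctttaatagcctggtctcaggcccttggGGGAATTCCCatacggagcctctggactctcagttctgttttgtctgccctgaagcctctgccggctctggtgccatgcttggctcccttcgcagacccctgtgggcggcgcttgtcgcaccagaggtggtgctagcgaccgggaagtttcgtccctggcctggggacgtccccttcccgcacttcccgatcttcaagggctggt
Tlr4: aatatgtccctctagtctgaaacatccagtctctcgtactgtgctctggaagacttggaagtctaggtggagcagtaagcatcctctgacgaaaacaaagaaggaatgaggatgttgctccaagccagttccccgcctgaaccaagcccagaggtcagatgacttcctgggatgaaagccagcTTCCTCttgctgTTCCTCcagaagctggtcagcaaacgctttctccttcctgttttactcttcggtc

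PU.1 is a transcription factor of myeloid cells. Its core occurred before 5 of the 8 genes, *Cd14* (at positions -140 to -135 and -105 to -100 from the start), *Tlr4* (-67 to -62 and -55 to -50), *Tlr8* (-121 to -116), *Tlr7* (-152 to -147), and *Tlr3* (-7 to -2), while 23.3% of the 33469 promoters of the table held it. The C/EBP motif, named for another family of factors active in macrophages, occurred at -74 to -67 and -27 to -20 of *Tlr8* and at -138 to -131 of *Tlr7*, and in 9.22% of all promoters. The NF-κB consensus, in the form given above, was found before *Tlr2* only among the 8 genes (-205 to -196, and in 4.24% of all promoters). Wider forms of this consensus were not searched, and further sites could match them. *Myd88*, not printed, held the interferon response element (GAAA, any 2 bases, then GAAA, at -16 to -7, and in 3.41% of all promoters) and the AP-1 motif TGANTCA (-208 to -202, in 6.34%). These motifs do not overlap one another in the 8 promoters. A match of letters is a description of the sequence and no evidence of binding, and no binding was measured.

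All 8 genes were higher in MWCNT-treated rats at all 3 time points, and by very different amounts. *Cd14* rose the most, 3.50-fold, 3.03-fold, and 3.98-fold at Years 0.5, 1, and 2, and *Tlr4* and *Myd88*, the receptor it serves and the shared adaptor, rose by 1.20-fold to 1.58-fold. Among the receptors, *Tlr8* reached the highest fold, 3.18 at Year 2. Here a gene is said to have risen when its false discovery rate (FDR, from the quasi-likelihood test of edgeR over all genes tested) was below 0.05, and is called a DEG when its log2 fold change was also above 1 in either direction. By the FDR alone, 8 of 8 genes rose at each time point, where 20.2%, 21.6%, and 25.2% of the 14315, 14345, and 14361 genes tested at Years 0.5, 1, and 2 did. At Year 1 this count rested on *Tlr4*, and 11 of 14 alternative fits gave 7 or 6 genes, as 4 fits at Year 0.5 gave 7 and 1 at Year 2 gave 7. As DEGs, 3, 3, and 5 genes were upregulated, against 6.07%, 6.13%, and 8.17% of all genes tested. The list was chosen with earlier results of these data known, so that these shares are given as a description with no test. The median log2 fold change of the 8 genes was 0.88, 0.77, and 1.05, and that of all genes tested was -0.02, 0.00053, and -0.01. RNA was taken from whole tissue, in which more cells of a type and more RNA of a gene per cell cannot be told apart.

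**Figure D1:**
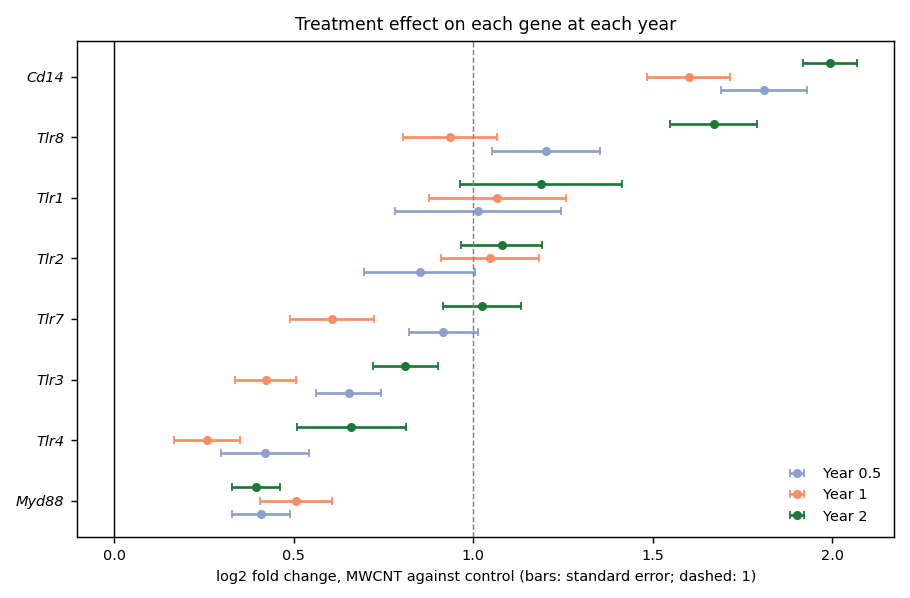
Log2 fold change of MWCNT-treated against control rats (horizontal axis) for each of the 8 genes at Years 0.5, 1, and 2, with bars for the standard error and a dashed line at 1. *Cd14* lies between 1.60 and 1.99, *Tlr4* and *Myd88* lie between 0.26 and 0.66, and no value lies below 0.

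*Cd14* (ENSRNOG00000017819, chromosome 18, 29560365 to 29562153, minus strand, in the build of the files, Rnor_6.0) encodes the co-receptor for lipopolysaccharide, which also marks monocytes and macrophages. At Year 0.5 its level was 43.1, 47.4, and 44.5 TPM in the control rats and 135, 167, and 125 TPM in the MWCNT-treated rats. At Year 1 it was 47.4, 56.9, and 56.3 TPM in the control rats and 129, 153, and 130 TPM in the treated rats. At Year 2 it was 44.5, 43.4, and 47.0 TPM in the control rats and 153, 165, and 145 TPM in the treated rats. The groups did not come near each other, and the lowest treated rat of any year stood above the highest control rat of any year. Tested on counts, its log2 fold changes were 1.81 (SE 0.12, FDR 1.55e-05; SE is the standard error), 1.60 (SE 0.11, FDR 1.76e-05), and 1.99 (SE 0.08, FDR 2.98e-07). Each of 14 alternative fits per year kept *Cd14* a DEG, with log2 fold changes from 1.34 to 2.05.

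**Figure D2:**
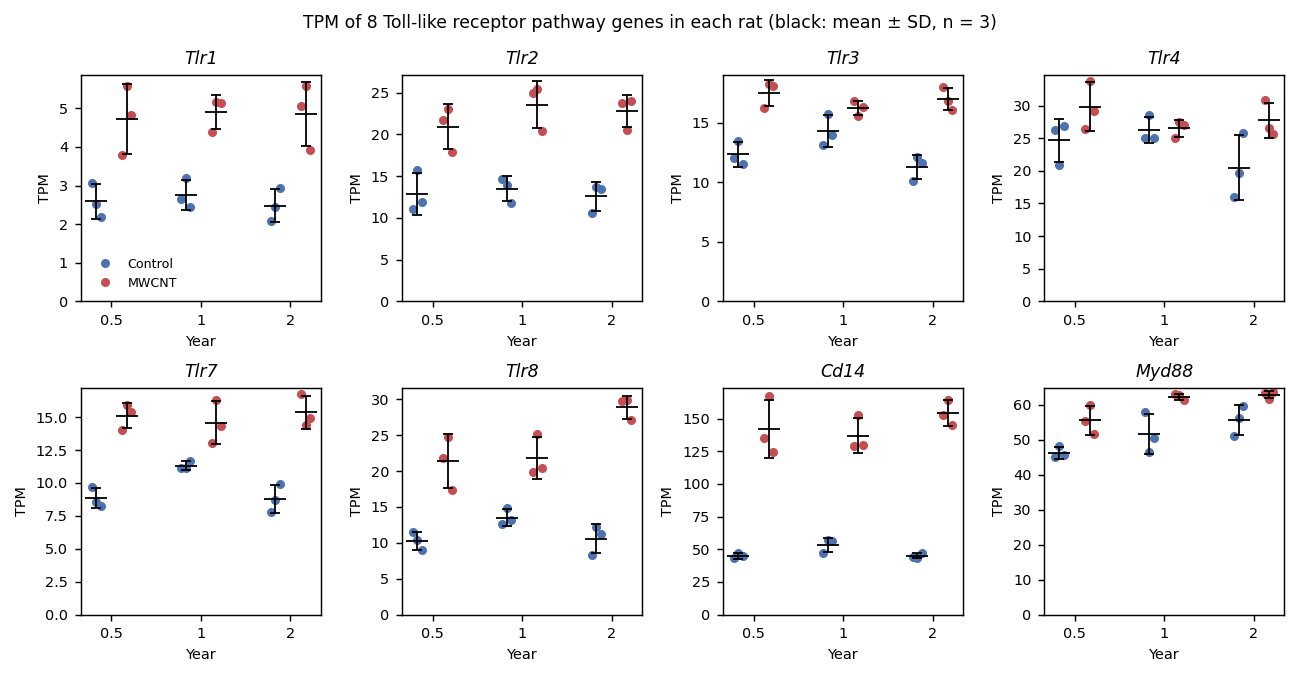
TPM (vertical axes, which start at 0) of the 8 genes in each rat by year, in control rats (blue) and MWCNT-treated rats (red), with the mean ± SD of 3 rats in black. The treated rats are above the control rats of the same year for *Cd14*, *Tlr1*, *Tlr2*, *Tlr7*, *Tlr8*, and *Myd88* in each year. For *Tlr4* the groups overlap in each year, and for *Tlr3* they overlap at Year 1.

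*Tlr4* (ENSRNOG00000010522, chromosome 5, 82587420 to 82601052, plus strand), the lipopolysaccharide receptor, had 26.3, 20.8, and 26.9 TPM in the control rats and 26.5, 33.9, and 29.2 TPM in the treated rats at Year 0.5. At Year 1 it had 25.0, 28.5, and 25.1 TPM in the control rats and 25.1, 27.5, and 27.1 TPM in the treated rats. At Year 2 it had 15.9, 19.7, and 25.8 TPM in the control rats and 30.9, 26.6, and 25.7 TPM in the treated rats. The TPM of the groups overlapped at each time point, and at Year 1 both groups covered nearly the same range. On counts scaled with TMM factors (which were 1.03 to 1.08 in control rats and 0.925 to 0.972 in treated rats), the groups were separate, and the log2 fold changes were 0.42 (SE 0.12, FDR 0.0249), 0.26 (SE 0.09, FDR 0.0486), and 0.66 (SE 0.15, FDR 0.00588). The call at Year 1 was lost in 11 of the 14 alternative fits, with FDR from 0.038 to 0.87, and that at Year 0.5 in 4, with FDR from 0.0069 to 0.119. The 2 rats whose omission ended the call at Year 0.5 were replicate 2 of the control rats (FDR 0.071) and replicate 2 of the treated rats (FDR 0.0826).

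*Tlr2* (ENSRNOG00000009822, chromosome 2, 182840727 to 182846061, minus strand) recognises lipoproteins of bacteria. It had 11.1, 15.7, and 11.8 TPM in the control rats and 21.7, 23.1, and 17.9 TPM in the MWCNT-treated rats at Year 0.5. In Year 1 its levels were 14.7, 14.0, and 11.8 TPM against 24.9, 25.4, and 20.4 TPM, and at Year 2 they were 10.6, 13.7, and 13.4 TPM against 23.8, 20.6, and 24.1 TPM. Every treated rat was above every control rat in each year. On the log2 scale the fold change was 0.85 (SE 0.15, FDR 0.00262), 1.05 (SE 0.14, FDR 0.000459), and 1.08 (SE 0.11, FDR 6.55e-05), which made *Tlr2* a DEG at Years 1 and 2.

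*Tlr1* (ENSRNOG00000038722, chromosome 14, 45062662 to 45081991, plus strand), a partner of TLR2, had the lowest level of the 8 genes in every group. Control rats had 2.59 ± 0.446, 2.76 ± 0.388, and 2.48 ± 0.426 TPM (SD, n = 3) at Years 0.5, 1, and 2, and MWCNT-treated rats reached 4.73 ± 0.901, 4.90 ± 0.442, and 4.86 ± 0.841 TPM (SD, n = 3). Its counts were 36 to 60 in control rats and 71 to 144 in treated rats, so that it was counted less precisely than the other genes. Its log2 fold changes were 1.01 (SE 0.23, FDR 0.00815), 1.07 (SE 0.19, FDR 0.00233), and 1.19 (SE 0.22, FDR 0.00213), and *Tlr1* was a DEG at each time point. *Tlr6*, its close relative, lies 16215 bases before it on chromosome 14, and how reads that match both genes were counted was not given in the sources used here.

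*Tlr8* and *Tlr7*, receptors for single-stranded RNA, lie 26200 bases apart on chromosome X, at 28539158 to 28562803 (ENSRNOG00000045992) and 28486869 to 28512957 (ENSRNOG00000004249), both on the plus strand. *Tlr8* had 11.5, 10.4, and 8.96 TPM in the control rats and 21.9, 24.8, and 17.4 TPM in the treated rats at Year 0.5. At Year 1 it had 12.6, 14.8, and 13.1 TPM against 19.9, 25.1, and 20.4 TPM, and at Year 2 it had 8.31, 12.2, and 11.2 TPM against 29.7, 29.9, and 27.1 TPM. The treated rats of Year 2 were above all other rats, and at no time point did a treated rat fall into the range of its control rats. Fold changes on the log2 scale were 1.20 (SE 0.15, FDR 0.000395), 0.94 (SE 0.13, FDR 0.000698), and 1.67 (SE 0.12, FDR 7.75e-06), a DEG at Years 0.5 and 2.

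*Tlr7* had 9.68, 8.58, and 8.27 TPM in the control rats and 14.0, 15.9, and 15.4 TPM in the treated rats at Year 0.5. At Year 1 it had 11.1, 11.1, and 11.7 TPM against 13.1, 16.3, and 14.4 TPM, and at Year 2 it had 7.77, 8.72, and 9.91 TPM against 16.8, 14.4, and 15.0 TPM. The gap between the groups was smallest at Year 1, where the control rats were higher than in the other years. For *Tlr7* the log2 fold changes came to 0.92 (SE 0.10, FDR 0.000152), 0.61 (SE 0.12, FDR 0.00359), and 1.02 (SE 0.11, FDR 7.12e-05), and *Tlr7* was a DEG at Year 2.

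*Tlr3* (ENSRNOG00000021726, chromosome 16, 50016857 to 50031214, plus strand) binds double-stranded RNA. Control rats of Years 0.5, 1, and 2 had 12.3 ± 1.03, 14.3 ± 1.36, and 11.3 ± 1.02 TPM (SD, n = 3), and MWCNT-treated rats 17.5 ± 1.10, 16.2 ± 0.609, and 17 ± 0.957 TPM (SD, n = 3). At Year 1 the highest control rat, with 15.8 TPM, was above the lowest treated rat, with 15.6 TPM, and in the other years the groups did not overlap. Treatment raised *Tlr3* by log2 fold changes of 0.65 (SE 0.09, FDR 0.000681), 0.42 (SE 0.08, FDR 0.00426), and 0.81 (SE 0.09, FDR 9.13e-05). The call at Year 1 was lost with limma on log2(TPM + 1), which gave 0.18 (FDR 0.184), and the other 13 alternatives kept it, so that the FDR ranged from 0.000924 to 0.184.

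*Myd88* (ENSRNOG00000013634, chromosome 8, 128022473 to 128026841, minus strand), the adaptor, had a high level in all groups and small log2 fold changes. It had 45.2, 48.3, and 45.5 TPM in the control rats and 55.2, 60, and 51.5 TPM in the treated rats at Year 0.5. At Year 1 it had 57.9, 46.6, and 50.5 TPM against 63.0, 62.7, and 61.3 TPM, and at Year 2 it had 51.1, 56.2, and 59.7 TPM against 63.4, 61.8, and 63.6 TPM. The treated rats were above the control rats of the same year in each case, but the control rats of Years 1 and 2 reached the range of the treated rats of Year 0.5. For *Myd88* the log2 fold change was 0.41 (SE 0.08, FDR 0.00415), 0.51 (SE 0.10, FDR 0.00415), and 0.39 (SE 0.07, FDR 0.00112). At Year 2 the call was lost with limma on log2(TPM + 1), which gave 0.18 (FDR 0.0754), and the FDR of the 14 alternatives ranged from 9.79e-05 to 0.0754.

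By TPM, all 3 treated rats were above all 3 control rats for 7, 6, and 7 of the 8 genes at Years 0.5, 1, and 2, where 17%, 15%, and 18.1% of all genes tested were so placed. By CPM (counts scaled by the library and its TMM factor) this held for all 8 genes in each year, against 26.2%, 28.5%, and 30.4% of all genes tested.

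Several DEG calls rested on single rats, since the log2 fold changes of *Tlr1*, *Tlr2*, *Tlr7*, and *Tlr8* lay close to the limit of 1. *Cd14* in each year, *Tlr8* at Years 0.5 and 2, and *Tlr1* at Year 2 stayed DEGs whichever rat was left out. At Year 0.5, *Tlr1* lost the call without control replicate 2, control replicate 3, or MWCNT replicate 2, and *Tlr2* gained it without control replicate 2. At Year 1, *Tlr1* and *Tlr2* lost it without control replicate 3 or MWCNT replicate 2, which left 1 DEG, and *Tlr8* gained it without MWCNT replicate 1, which made 4. At Year 2, *Tlr2* and *Tlr7* lost it without control replicate 1, which left 3 DEGs, and *Tlr7* lost it without MWCNT replicate 1, which left 4. Control replicate 1 of Year 2 had the lowest TPM of its group for each gene other than *Cd14*. The label of its library ends in a letter that no other library here has, and the meaning of the letter is not given.

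The order of the levels changed with treatment. In control rats *Myd88* (46.3, 51.7, and 55.7 TPM on average at Years 0.5, 1, and 2) and *Cd14* (45.0, 53.5, and 45.0 TPM) stood at the top, followed by *Tlr4* (24.7, 26.2, and 20.5 TPM). In MWCNT-treated rats *Cd14* (142, 137, and 154 TPM) stood above *Myd88* (55.6, 62.3, and 62.9 TPM), with no overlap. *Tlr8* was below *Tlr4* in every control group and in the treated groups of Years 0.5 and 1. At Year 2, it had 28.9 ± 1.59 TPM (SD, n = 3) against 27.7 ± 2.74 TPM (SD, n = 3) for *Tlr4* in the treated rats, ranges that overlapped. Over the 6 groups, the mean of each treated group was above that of each control group for every gene other than *Myd88*, for which the control rats of Year 2 and the treated rats of Year 0.5 differed by less than their spread. For *Tlr3* and *Tlr4*, the lowest treated group and the highest control group overlapped.

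Since the genes are measured in the same rats, the size of their responses was also compared within each rat, as the ratio of the TPM of a gene to that of *Tlr4*. These ratios do not depend on how the libraries were scaled. The 8 ratios, and *Tlr4* as the gene below the line, were chosen after the values had been seen, so that they are given as a description with no test. The ratio of *Cd14* to *Tlr4* was 2.54-fold higher in MWCNT-treated rats, averaged over the years on the log2 scale. Those of *Tlr8* (1.76-fold), *Tlr1* (1.55-fold), and *Tlr7* (1.32-fold) were also higher, and in each of these 4 ratios all treated rats were above all control rats of their year. That of *Tlr2* was 1.46-fold higher, with the groups separate in 2 of the 3 years. *Tlr3* gave 1.13-fold, with the groups separate in 1 year, and *Myd88* gave 0.991-fold, with the groups overlapping in each year. The ratio of *Tlr8* to its neighbour *Tlr7* was 1.34-fold higher.

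**Figure D3:**
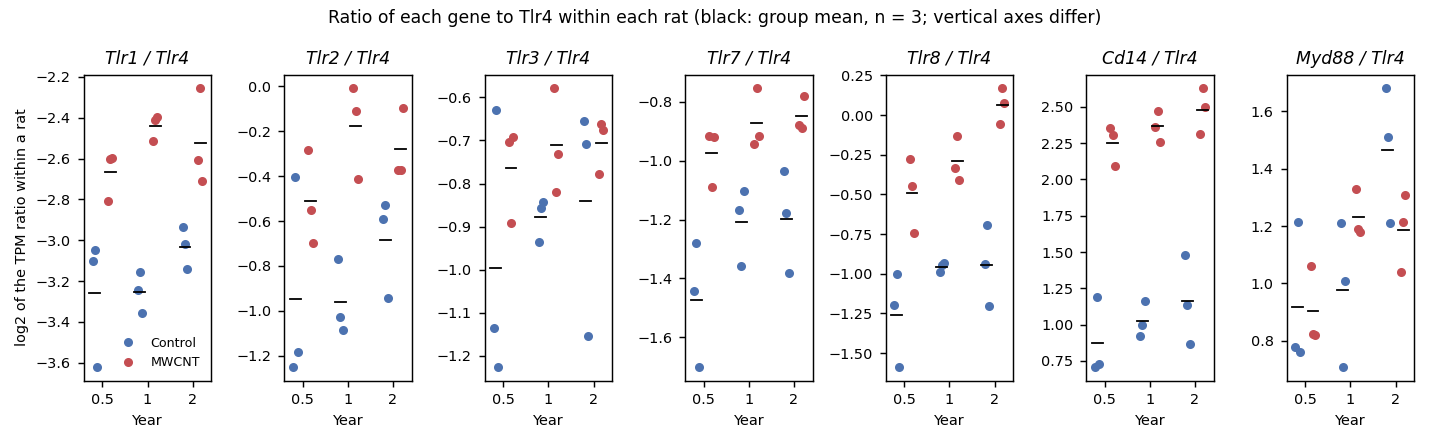
Log2 of the ratio of the TPM of each gene to that of *Tlr4* within each rat (vertical axes, which differ between panels), by year, in control rats (blue) and MWCNT-treated rats (red), with the mean of 3 rats in black. The groups are fully separate in each year for *Tlr1*, *Tlr7*, *Tlr8*, and *Cd14*, and mixed for *Myd88*.

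Time was examined in 1 model of all 18 rats (14843 genes). No member was a DEG between years in either treatment. In control rats, 0%, 0.499%, and 0.633% of all genes were DEGs for Year 1 against 0.5, Year 2 against 1, and Year 2 against 0.5, and in MWCNT-treated rats 0.0472%, 0.903%, and 2.34% were. By the FDR alone, 0%, 7.93%, and 6.65% of all genes differed in these 3 comparisons in control rats, and 0.101%, 5.94%, and 13.5% in MWCNT-treated rats. Among the 8 genes, *Tlr3* was lower at Year 2 than at Year 1 in control rats (log2 difference -0.32, SE 0.09, FDR 0.0361), and 20 of 25 settings kept it. *Tlr8* was higher at Year 2 than at Year 0.5 in MWCNT-treated rats (log2 difference 0.52, SE 0.15, FDR 0.0266), and 21 of 25 settings kept it. *Myd88* was higher in the same comparison (log2 difference 0.26, SE 0.08, FDR 0.0496), and 7 of 25 settings kept it. Control rats gave a difference of about the same size for *Myd88* between these years (0.27, SE 0.09, FDR 0.0682). This rise is therefore not shown to be particular to MWCNT-treated rats. *Tlr8* lost the call without MWCNT replicate 1 or 3 of Year 0.5 or replicate 1 or 2 of Year 2. *Tlr3* lost it without control replicate 2 or 3 of Year 1 or replicate 1 or 2 of Year 2. It also lost it when the libraries were scaled by their size alone, without TMM factors.

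Whether the response to MWCNT differed between years was tested by the interaction of treatment and time, in which 0%, 0.478%, and 1.31% of all genes had an FDR below 0.05 for Year 1 against 0.5, Year 2 against 1, and Year 2 against 0.5. None of the 8 genes did with edgeR, and 0, 4, and 1 of them had an unadjusted p below 0.05. The share of all genes with such an unadjusted p was not computed, so these counts have no share beside them. The smallest FDR was that of *Tlr8* for Year 2 against Year 1, whose log2 fold change was 0.75 larger at Year 2 (SE 0.21, FDR 0.0986). With DESeq2 the same difference had an FDR of 0.0293, and without MWCNT replicate 2 of Year 1 it was 0.91 (FDR 0.0432). The larger count of DEGs at Year 2 is therefore not shown to be a larger response at Year 2.

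**Figure D4:**
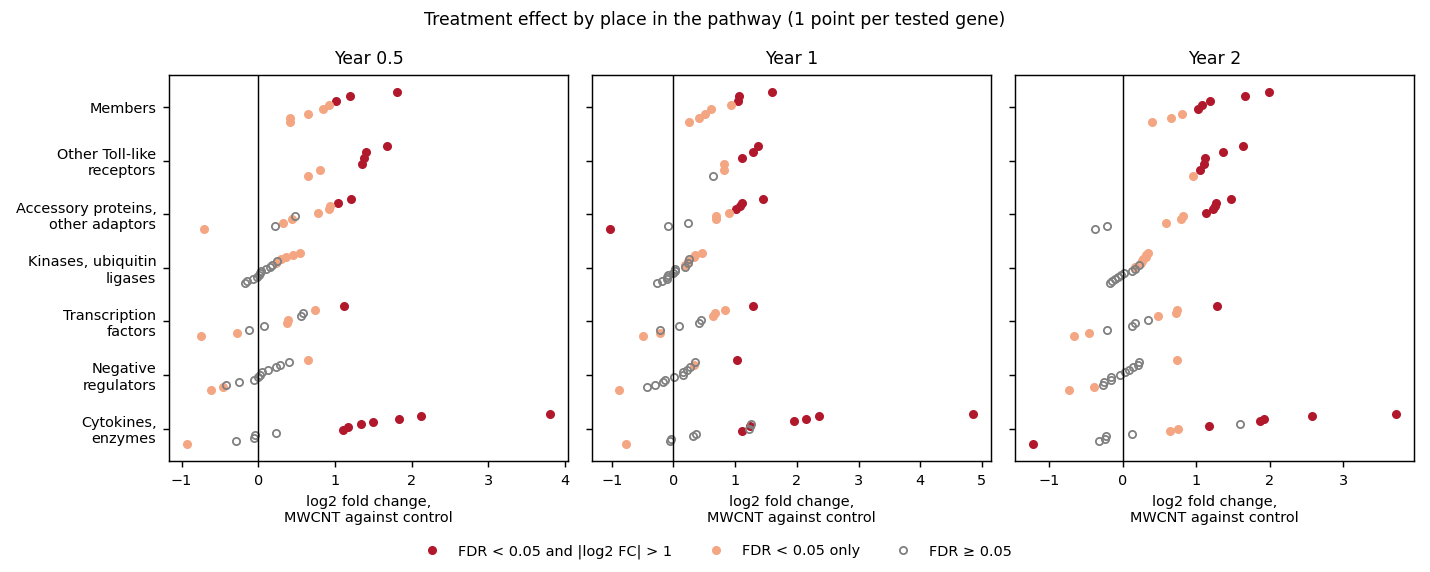
Log2 fold change of MWCNT-treated against control rats (horizontal axis) for each tested gene of the pathway at Years 0.5, 1, and 2, grouped by its place in the pathway, with the vertical shift inside a group used only to separate the points. Dark red points are DEGs, light red points passed the FDR alone, and open points did not pass it. Some of the receptors and some of the chemokines lie beyond 1 in each year, whereas no kinase or ubiquitin ligase does.

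The other receptors of the family rose as well. Of 7 listed, 6 were found, and 4, 3, and 5 of these 6 were upregulated DEGs at Years 0.5, 1, and 2, with median log2 fold changes of 1.37, 0.97, and 1.11. The share of upregulated DEGs among all genes tested was 6.07%, 6.13%, and 8.17%. *Tlr13* (a receptor for bacterial ribosomal RNA, listed in the files as AABR07039446.2 and matched through the RefSeq gene table) had the highest level, 27.5 ± 0.496 TPM in control rats and 63.6 ± 5.15 TPM in MWCNT-treated rats (SD, n = 3) at Year 0.5, and log2 fold changes of 1.35, 1.11, and 1.64. *Tlr11* (1.38, 1.29, and 1.12) was also a DEG in each year, at 12 to 90 counts per rat. *Tlr12* (1.68, 1.37, and 0.96), *Tlr5*, the flagellin receptor (1.41, 0.64, and 1.05), *Tlr6* (0.65, 0.83, and 1.10), and *Tlr9*, the receptor for unmethylated DNA (0.81, 0.83, and 1.37), were DEGs in some years. *Tlr5* at Year 1 did not pass the FDR (0.0893). *Tlr10* was not analysed here.

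Among the accessory proteins and other adaptors, 10 of 11 were found, and 7, 7, and 8 of these rose by the FDR at Years 0.5, 1, and 2, with 2, 4, and 5 upregulated DEGs. The shares of all genes tested were 20.2%, 21.6%, and 25.2% by the FDR, and 6.07%, 6.13%, and 8.17% as upregulated DEGs. *Lbp*, whose product delivers lipopolysaccharide to CD14, had log2 fold changes of 1.04, 1.01, and 1.23, and *Ly86*, the partner of *Cd180*, had 1.21, 1.45, and 1.13, and both were DEGs in each year. *Unc93b1*, which carries the endosomal receptors to their place, had 0.94, 1.12, and 1.48 (FDR 1.37e-06 at Year 2), and *Ticam2*, the adaptor that links TLR4 to TRIF, had 0.92, 1.08, and 1.26. *Sarm1*, an adaptor that dampens the signal, fell at Year 0.5 (-0.70) and Year 1 (-1.02, a DEG) and is named here after its values were seen.

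The signal carriers inside the cell moved little. Of 17 listed kinases and ubiquitin ligases, 16 were tested, 0 were DEGs in any year, and 5, 5, and 7 rose by the FDR, with all log2 fold changes between -0.26 and 0.54. Of all genes tested, 20.2%, 21.6%, and 25.2% rose by the FDR, and 6.07%, 6.13%, and 8.17% were upregulated DEGs. *Irak1* (0.30, 0.24, and 0.25), *Irak4* (0.36, 0.33, and 0.35), and *Traf3* (0.45, 0.46, and 0.27) rose in each year, and *Traf6* did not pass the FDR in any (-0.02, -0.26, and -0.14). These 4 are examples chosen after their values were seen. Of 10 transcription factors, *Irf5*, which acts downstream of MyD88, was the only DEG, with log2 fold changes of 1.11, 1.30, and 1.28 in the 3 years. By the FDR alone, 4 transcription factors rose and 2 fell in each year, and the median log2 fold change of the 10 was 0.39, 0.43, and 0.26. Of 13 negative regulators, *Nfkbie*, an inhibitor of NF-κB, was a DEG at Year 1 (1.04) and rose by less at Years 0.5 and 2 (0.65 and 0.74), and 2, 1, and 2 of the list fell by the FDR. The share of all genes tested that fell was not computed, so the counts of genes that fell have no share beside them.

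Among the 18 cytokines and enzymes that these receptors are known to induce, 12, 13, and 13 were tested. Of these, 7, 6, and 5 were upregulated DEGs at Years 0.5, 1, and 2, against 6.07%, 6.13%, and 8.17% of all genes tested. *Ccl2*, which draws monocytes, had log2 fold changes of 3.80, 4.86, and 3.72, and rose from 3.22 ± 1.28 TPM to 79.1 ± 13.7 TPM (SD, n = 3) at Year 1. *Ccl3* (2.12, 1.95, and 1.86), the neutrophil chemokines *Cxcl1* (1.17, 2.14, and 1.93) and *Cxcl2* (1.84, 2.36, and 2.58), and *Il18* (1.10, 1.10, and 1.18) were DEGs in each year. *Cxcl10* was a DEG at Year 0.5 (2.83-fold), and *Ccl5*, a chemokine of T cells, fell in each year (-0.92, -0.78, and -1.21). *Il1b*, the classic product of this pathway, did not pass the FDR in any year (0.23, 0.31, and -0.22), *Tnf* was not tested at Year 0.5 and did not pass later (FDR 0.386 and 0.346), and *Il6*, *Il10*, *Il12a*, *Il12b*, and *Ifnb1* had too few counts to be tested. These 7 are named after their values were seen.

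Marker genes of several cell types moved with the treatment. Of 10 macrophage markers (*Cd68*, *Csf1r*, *Adgre1*, *Mertk*, *Marco*, *Cd163*, *Mrc1*, *Itgax*, *C1qa*, and *C1qb*), 9, 8, and 10 were higher in MWCNT-treated rats by the FDR at Years 0.5, 1, and 2. Among all genes tested, 20.2%, 21.6%, and 25.2% were. The summed level of the macrophage markers was 414 to 558 TPM in control rats and 1159 to 2024 TPM in treated rats, with no marker at 0 in any group. The list did not move as 1 block, and *Cd68* rose by 2.44 to 3.03 on the log2 scale, *Csf1r* by 0.34 to 0.55, while *Cd163* fell at Year 1 (-1.15). The sum of 4 markers of all leukocytes (*Ptprc*, *Coro1a*, *Laptm5*, and *Cd53*) was 614 to 781 TPM in control rats and 879 to 1122 TPM in treated rats. These 4 also differed, and *Cd53* (1.29, 1.32, and 1.69) and *Laptm5* (0.95, 0.92, and 1.10) rose in each year. *Ptprc* rose at Years 0.5 and 2 only (0.36 and 0.28), and *Coro1a* did not pass the FDR in any year. The sum of 7 neutrophil markers was 240 to 419 TPM in control rats and 385 to 1161 TPM in treated rats. Of these markers, *S100a9* rose in each year and *S100a8* at Years 1 and 2, whereas *Fcnb* fell at Year 2 (-0.86). *Csf3r* and *Cxcr2* did not pass the FDR in any year, and *Mpo* or *Elane* was at 0 in 4 of the 6 groups. The sums of T cell markers (74.2 to 124 against 33.5 to 78.8 TPM) and endothelial markers (1795 to 2320 against 539 to 1238 TPM) were lower in treated rats, with no overlap within a year. By the FDR, 3, 0, and 5 of 5 T cell markers and 4 of 4 endothelial markers in each year were lower. The share of all genes tested that were lower was not computed. The 6 alveolar epithelial markers summed to 30663 to 38983 TPM in control rats and 51221 to 60759 TPM in treated rats, but moved in both directions. The surfactant genes *Sftpc*, *Sftpb*, and *Sftpa1* rose in each year, *Aqp5* (-0.82, -0.56, and -0.97) and *Hopx* (-0.49, -0.44, and -0.89) fell in each year, and *Ager* fell at Years 0.5 and 2 (-0.45 and -0.63). Markers of monocytes (109 to 294 against 93.1 to 156 TPM), dendritic cells (34.9 to 45.2 against 25 to 50.7 TPM), and fibroblasts (387 to 792 against 325 to 482 TPM) covered ranges that overlapped when the years were pooled. Within a year, the monocyte sum was lower in all treated rats at Year 2, and the fibroblast sum at Years 0.5 and 1. The dendritic cell sum was lower in all treated rats at Year 2. At Year 0.5 it was higher in all, from 40.56 TPM against at most 40.55 TPM in control rats. At Year 2 the markers of each list moved in both directions. Of monocyte markers, *Vcan* (1.89) and *Cx3cr1* (0.66) rose, while *Nr4a1* (-1.02) and *Fcnb* (-0.86) fell. Of dendritic cell markers, *Xcr1* (1.16) and *Flt3* (0.48) rose, *Zbtb46* (-0.96) fell, and *Clec9a* did not pass the FDR. Of fibroblast markers, *Col1a1* (1.22) rose, while *Pdgfra* (-0.35), *Dcn* (-1.31), and *Col13a1* (-1.06) fell. Heart muscle markers summed to 74.6 to 805 TPM in control rats and 16.2 to 238 TPM in treated rats. The part of these cell types in the levels of the 8 genes was not tested.

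For each of the 8 genes, the 3 genes with the most similar pattern were found among the 14843 genes, by the root mean square difference of log2 CPM, centred on the mean of each gene, over the 18 rats. The closest to *Cd14* were *Ifi30* (0.137), *Atp6v1b2* (0.140), and *Ctsh* (0.142), where the median gene differed from *Cd14* by 0.942. The closest to *Tlr8* were *Plxnc1* (0.160), *Fnip2* (0.167), and *Gaa* (0.179), and the closest to *Tlr7* were *Dab2* (0.106), *Slc39a6* (0.113), and *Slc15a4* (0.119). *Tlr2* was closest to *Laptm5* (0.125), *Ptpro* (0.136), and *Tnfsf13* (0.136), and *Tlr1* to *Pdhx* (0.165), *Ppt1* (0.167), and *Lonrf3* (0.179). *Tlr3* was closest to *Washc5* (0.0927), RGD1559575 (0.0976), and *Arl8b* (0.0985), *Tlr4* to *C1galt1* and *Spcs3* (0.10 each) and *Fgd4* (0.107), and *Myd88* to *Arhgap30* (0.0926), *Cap1* (0.0927), and *Gmppa* (0.0961). None of the 8 genes was among the closest 3 of another. The nearest pair within the list was *Tlr3* and *Tlr7* (0.164), and the farthest were *Cd14* and *Myd88* (0.700) and *Cd14* and *Tlr4* (0.698).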

How the data were processed

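Total RNA of the lung was sequenced from 18 rats, 3 in each of 6 groups set by the labels. Per the study's methods, the authors mapped the reads with CLC Genomics Workbench (version 22.0.2) to the rat genome (Rnor_6.0, or rn6, in the submitters' processing notes). They deposited whole-number counts per gene, which were used for all tests, and TPM values, which were used for levels and ratios. Their RPKM, their TMM-adjusted CPM, and their comparison columns (fold changes, p-values, FDR, Bonferroni values, and maximum group means) were not used. Counts were filtered with filterByExpr (minimum count 10), scaled with TMM factors, and tested with edgeR (4.0.16, quasi-likelihood) in R (4.3.3), 1 fit of 6 rats per year and 1 fit of 18 rats for time, with Benjamini-Hochberg adjustment over all genes tested. DEGs had an FDR below 0.05 and a log2 fold change above 1 in either direction, as in the study. Levels are limited by the depth, from 13297643 to 21130757 counts per rat. The fits were tested on simulated data. Alternatives were RLE factors, library size alone, other filters, DESeq2 (1.42.0), limma (3.58.1) on log2(TPM + 1), 1 fit of 18 rats, a replicate block, other call rules, and leaving out each rat. The 10 genes and all lists were chosen with earlier results of these data known. Named were the 10 genes, all other Toll-like receptors, and, of each other list, the DEGs of all 3 years with up to 2 further DEGs of the largest change at Year 2. Motif matches were searched in the RefSeq sequences before each start. *Ly96* and *Ticam1* are not analysed here, and 1 marker list is not reported here.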

Additional observations from a re-analysis of the deposited data

How the results depend on the processing

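In 14 alternative fits per gene and year, no direction was reversed, and of the 336 values 319 kept their side of the FDR threshold. The 17 that lost it were *Tlr4* at Year 0.5 in 4 fits and at Year 1 in 11, *Tlr3* at Year 1 in 1, and *Myd88* at Year 2 in 1. The number of DEGs among the 8 genes was 3, 3, and 5 at Years 0.5, 1, and 2. It became 2, 1, and 3 with library size alone, which moved the median log2 fold change of all genes to -0.12, -0.13, and -0.18, and it became 1, 1, and 2 with limma on log2(TPM + 1), where that median was -0.15, -0.21, and -0.20. With the FDR alone it was 8 in each year, and 11 of the 14 alternative fits then gave 7 or 6 at Year 1, 4 gave 7 at Year 0.5, and 1 gave 7 at Year 2. The fits that omitted a single rat gave 2 to 3 DEGs at Year 0.5, 1 to 4 at Year 1, and 3 to 5 in Year 2. RLE factors, other filters, DESeq2, and 1 model of 18 rats left it at 3, 3, and 5. The labels repeat replicate numbers, but each rat is a separate animal. Same-numbered rats did not deviate together (mean correlation 0.00685 over 9 pairs, and -0.00319 over 18 pairs of different numbers), and the fit with a replicate block gave 3, 3, and 5 DEGs. Over time, the FDR alone gave 1 member in control rats and 2 in MWCNT-treated rats in place of 0. For the interaction, DESeq2 gave 1 member (*Tlr8*) in place of 0, as did the fit without MWCNT replicate 2 of Year 1, and the range over rats left out was 0 to 1. The causes of these shifts were not tested. The counts of *Tlr1* (36 to 144 per rat) are the lowest and limit its precision.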

Other observations

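The members of NF-κB did not move together. *Nfkb2* (0.39, 0.65, and 0.73) and *Relb* (0.38, 0.83, and 0.48) were higher in MWCNT-treated rats by the FDR in each year, *Rela* (-0.27, -0.22, and -0.46) was lower in each year, and *Nfkb1* (0.07, 0.10, and 0.17) did not pass the FDR in any. *Rel* (0.58, 0.67, and 0.35) passed the FDR at Year 1 only (0.0412). *Jun*, a subunit of AP-1, was lower in each year (-0.75, -0.49, and -0.65). *Fos*, another subunit, went the other way (0.56, 0.41, and 0.74) and passed the FDR at Year 2 only (0.0158). In each year, 10 of the 13 listed negative regulators did not pass the FDR. The share of all genes tested that did not pass it in either direction was not computed, so this count has no share beside it. *Dusp1*, a phosphatase that limits the signal, was lower in each year (-0.62, -0.88, and -0.73). *Sigirr*, a receptor that limits it, was lower at Years 0.5 and 2 (-0.45 and -0.39) and gave -0.17 (FDR 0.163) at Year 1. These genes were chosen after their values were seen.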
